A study of Mus musculus with 24 samples.

Results

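The cells described here are the wild-type Hes5-lineage cells of the adult mouse hippocampus. The samples were chosen by the sample titles alone: the 12 sequencing runs titled WT1, WT2 and WT3, of 24 runs in the series, were kept, and the 4 runs behind each title were summed to 1 pool. The mice were adult C57BL/6 animals that carried the driver Hes5::CreERT2 and the reporter Rosa26R-CAG::GFP with an intact Notch2 (wt/wt). They received tamoxifen on 5 days, GFP-positive cells were sorted after 1 day of chase, and RNA was taken from cells pooled over animals. A tamoxifen-dependent Cre recombinase driven from Hes5 thus decides which cells carry the reporter, and a cell keeps GFP after it has stopped expressing Hes5. The sort therefore collects cells that had an active Hes5 driver during treatment, together with what they turned into, and each value is a mean over such a mixture. In bulk RNA, fewer cells of a type and less RNA per cell cannot be told apart.

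Hes5 is a transcriptional repressor of the Hes and Hey family that is switched on when a Notch receptor is cleaved and its intracellular domain joins the DNA-binding protein Rbpj. In the adult dentate gyrus it marks radial glia-like stem cells, which divide rarely and give rise to granule neurons and astrocytes. These stem cells share much of their transcriptome with astrocytes, including glutamate carriers, gap junction proteins and the intermediate filament Gfap. Pdgfra, the platelet-derived growth factor receptor alpha, marks another dividing cell of the same tissue, the oligodendrocyte precursor.

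The sequence upstream of the Hes5 gene is shown first, because all values below depend on where and when the Hes5 driver was active. Whether the Cre driver holds this same sequence was not checked. The Hes5 gene lies on chromosome 4, 154960923 to 154962371, plus strand (GRCm38). The 250 bases before its start site (chr4:154960673-154960922, plus strand, GRCm38.p6, sequence from RefSeq) are printed 5′ to 3′, with each match to TGGGAA, the core of the sequence bound by Rbpj, or to its reverse complement TTCCCA in capitals.
Hes5 upstream sequence: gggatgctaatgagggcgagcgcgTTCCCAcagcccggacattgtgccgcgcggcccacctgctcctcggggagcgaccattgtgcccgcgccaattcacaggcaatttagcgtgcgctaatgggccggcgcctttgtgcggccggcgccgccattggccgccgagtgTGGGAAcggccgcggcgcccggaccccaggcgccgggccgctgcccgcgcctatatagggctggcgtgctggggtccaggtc
The window held 2 matches, which began 226 and 82 bases before the start site, the first on the minus and the second on the plus strand. At least 1 match in the same window was found in 21.6% of 32851 promoters, and 2 or more in 2.77%. Among the other Notch effector and related genes with a RefSeq entry, Hey2 had 1 match at 207 bases before its start site. Neither Nrarp nor either start site of Hes6 had one. A match of letters is a description of the sequence and no evidence of binding.

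Reads in genes numbered 40366579 to 52682485 per pool, so that 3 reads corresponded to 0.0569 to 0.0743 CPM (reads of a gene scaled to 1e+06 reads in genes), and 26502 to 33937 symbols had a read. Reads outside annotated genes made up 16.0% of all reads in pool 1 and 25.8% and 24.2% in pools 2 and 3. Every pool had been made into 2 libraries, and pool 3 stood apart in how well these matched. Of the genes at 10 CPM or more in at least 1 library of a pool, 2.26% (259 of 11468) in pool 1 and 1.20% (139 of 11550) in pool 2 were under 1 CPM in the other library, against 16.8% (1873 of 11144) in pool 3. Low levels in pool 3 are therefore less certain than the read depth implies, and values without this pool are given for the main counts. The labels attach a tag of 20K, 12K and 2K to pools 1, 2 and 3, whose meaning is not given in the sources used here. The pools also differed in sex-linked transcripts, although the labels used here give no sex. Xist, the RNA that silences an X chromosome in females, stood at 448, 318 and 0.248 CPM in pools 1, 2 and 3. The Y-linked gene Eif2s3y stood at 0.0759, 79.7 and 146 CPM and Ddx3y at 0.0190, 36 and 71.4 CPM in the same order. Pool 1 thus had Xist and next to no reads of these Y-linked genes, pool 3 the reverse, and pool 2 both. No value below is corrected for sex, and its part in the differences between pools was not tested.

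**Figure D1:**
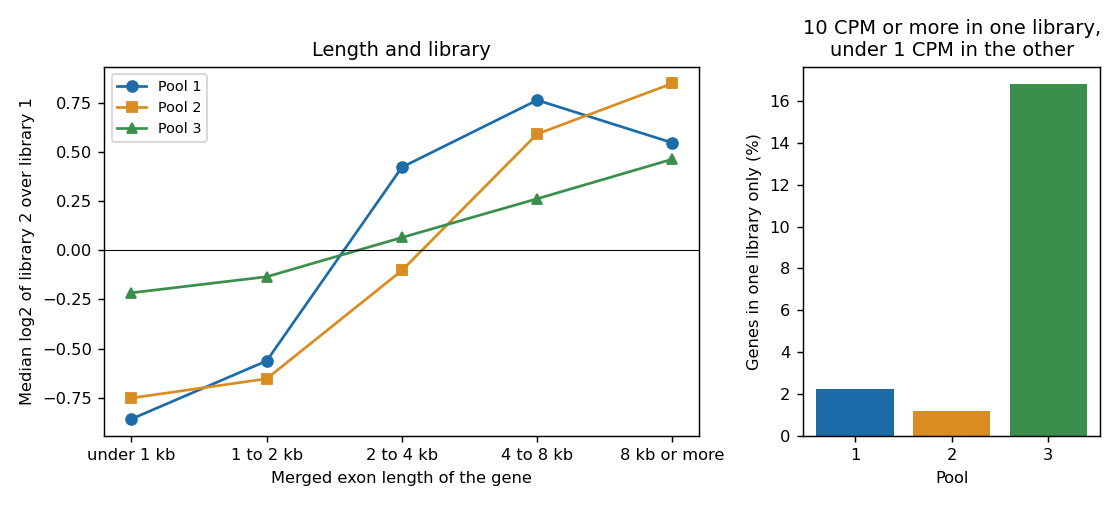
Left, the median log2 ratio of library 2 to library 1 (y axis) for genes grouped by the length of their merged exons (x axis), 1 line per wild-type pool; right, the percentage of genes at 10 CPM or more in 1 library that were under 1 CPM in the other. Library 1 holds more reads of short genes and library 2 more of long genes in every pool, and pool 3 has 16.8% of genes in 1 library only against 2.26% and 1.20% in pools 1 and 2.

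Wild-type cells transcribed a broad set of genes, with a small group of astroglial and mitochondrial transcripts taking a large part of the reads. Of 48321 symbols, 13712 (28.4%) stood at 1 CPM or more in all 3 pools, and 8156 (16.9%) at 10 CPM or more. Without pool 3 these counts were 15767 and 9273, without pool 1 14239 and 8750, and without pool 2 14018 and 8456. Leaving out any pool can only keep or raise such a count, so a rise alone says nothing about the pool left out. Of the 13712 symbols, 59.5% stood at 10 CPM or more in all pools and 39.9% in each of the 6 libraries. Counts of list members below are to be read beside these shares. The 100 most abundant symbols took 29.3%, 30.7% and 27.0% of the reads in pools 1, 2 and 3 (mean 29.0% ± 1.86, SD, n = 3 pools), and 50% of the reads fell in 638, 617 and 765 symbols. Protein-coding genes took 86.6% ± 0.866 of the reads.

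Levels of different genes are compared below only after division by the length of the merged exons (CPM per kb). On that scale Apoe, the apolipoprotein that carries cholesterol between brain cells, came first, with 12554 ± 2884 CPM per kb (mean ± SD, n = 3 pools). It stood at 31806, 28777 and 19939 CPM in pools 1, 2 and 3, lowest in pool 3. Cst3, a secreted inhibitor of cysteine proteases, followed among nuclear protein-coding genes with 10272 ± 3202 CPM per kb, and single pools had 17508, 11854 and 9649.6 CPM. Pool 1 was highest and pool 3 lowest for both genes. Aldoc, the brain form of the glycolytic enzyme aldolase, reached 3444 ± 834 CPM per kb, and single pools had 13889, 11366 and 8454 CPM. Clu, a secreted chaperone, reached 2159.8 ± 439.9 CPM per kb, and Sparcl1, a matrix protein that promotes synapse formation, 1587 ± 305 CPM per kb. Apoe, Cst3, Aldoc, Clu and Sparcl1 were the 5 members of the astrocyte list among the 25 highest symbols per kb, counted after clones, predicted models and pseudogenes were left out (9 of these lay above the lowest of the 25).

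The remaining places among those 25 went to 10 mitochondrially encoded symbols, to Malat1, a nuclear noncoding RNA, and to genes of general or glial function. Malat1 stood at 16319, 31349 and 25443 CPM, lowest in pool 1. Cd81, a tetraspanin of the cell surface, had 2166 ± 406 CPM per kb, and Gpm6a, a membrane glycoprotein, 1189 ± 400.5 CPM per kb. Ldhb, the lactate dehydrogenase subunit B, had 1119.7 ± 312 CPM per kb, and the glutathione transferases Gstm5 and Gstm1 had 1304 ± 444 CPM per kb and 937 ± 132 CPM per kb. The order within the 25 is loose: in 23 of 24 neighbouring pairs the pool ranges overlapped, and Clu over Sparcl1 was the exception. Levels of multi-copy genes are uncertain, because the deposited tables set no read aside for having several alignments. The nuclear copy symbol Gm28437 on chromosome 1 had a mean of 2499 CPM beside 2494 CPM for mt-Co3. Ubb, a ubiquitin gene at 12366, 4892 and 5071 CPM, stood beside 3989 and 1377 CPM for its pseudogenes Gm1821 and Gm8797. These copies were looked up after the values had been seen.

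**Figure D2:**
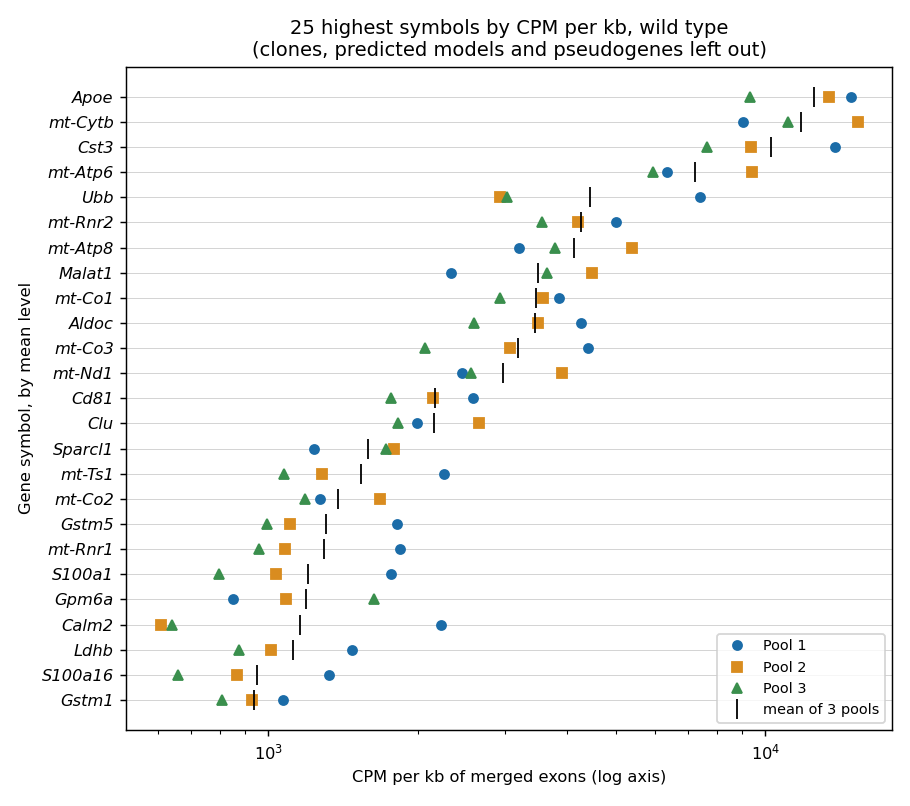
CPM per kb of merged exons on a log axis (x) for the 25 symbols with the highest mean in wild type (y), clones, predicted models and pseudogenes left out, 1 point per pool and a vertical bar for the mean of 3 pools. Apoe leads at 12554 CPM per kb, and neighbouring genes overlap in all but 1 of 24 pairs.

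The 5 marker genes of the sorted cells were all abundant, and the receptor Pdgfra was carried mainly by 1 of the 2 libraries of each pool. Hes5, the gene that drove the Cre, stood at 224, 410.1 and 463 CPM in pools 1, 2 and 3. Pool 1 was lowest, and both libraries of each pool were close (219 and 229 CPM in pool 1). Slc1a3 (chromosome 15, 8634124 to 8710764, minus strand, GRCm38), the astroglial glutamate carrier GLAST, stood at 3683, 5698 and 7751 CPM, and Gja1 (chromosome 10, 56377330 to 56402513, plus strand), the gap junction protein connexin 43, at 2163, 3490.0 and 4368 CPM. Both were lowest in pool 1 and highest in pool 3, as Hes5 was. Gfap (chromosome 11, 102887336 to 102900912, minus strand) stood at 864, 837 and 729.8 CPM, with the smallest spread of the 5 over pools, but its libraries in pool 1 held 233 and 1468 CPM. Pdgfra (chromosome 5, 75152292 to 75198215, plus strand) stood at 595, 1068 and 1137 CPM, and its libraries held 243 and 932 CPM in pool 1, 214 and 2160.4 CPM in pool 2 and 338 and 1808 CPM in pool 3. Library 2 was above library 1 in all 3 pools, with a log2 difference of 2.48 (SE 0.37). The unadjusted p was 0.00168 in edgeR's quasi-likelihood test and did not pass adjustment. A skew to library 2 was not particular to Pdgfra: the median log2 difference over the 5 markers was 0.923. Long genes in general were higher in library 2, as given below. In GENCODE M21 other gene models overlap exons of Hes5 and Pdgfra, so some of their reads may be among those the authors' counting set aside as ambiguous. Per kb of exon, Slc1a3 (669 ± 238 CPM per kb) and Gja1 (326 ± 108 CPM per kb) had the highest means of the 5, and Hes5 (268 ± 92.1 CPM per kb), Gfap (192 ± 16.8 CPM per kb) and Pdgfra (93.1 ± 29.4 CPM per kb) followed.

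Genes of adult radial glia-like stem cells were present at very different levels, with means of 107 ± 40.6 CPM per kb for Sox9 and 0.447 ± 0.469 CPM per kb for Nes (± SD, n = 3 pools). Of the list's 25 members, 19 (76%) stood at 10 CPM or more in all 3 pools. The share was 16.9% among all symbols and 59.5% among symbols at 1 CPM or more in all pools. The list's count was 20, 21 and 21 without pools 1, 2 and 3. It was 12 (48%) when each of the 6 libraries had to reach 10 CPM. Of symbols at 1 CPM or more in all pools, 39.9% did so. Sox9, a transcription factor of glial fate, stood at 251, 555 and 526 CPM, and Fabp7, the brain fatty acid binding protein, at 403, 442 and 356 CPM. Pool 1 was lowest for Sox9, and the pools lay close for Fabp7. Ednrb, the endothelin receptor B, stood at 411, 777 and 786 CPM, and Cd9, a tetraspanin, at 1260.0, 891 and 737 CPM. Sox2, which maintains neural stem cells, stood at 38.6, 34 and 59 CPM, and Hopx, which marks quiescent stem cells, at 44.1, 38.1 and 54.5 CPM. For both genes pool 3 was highest and pool 2 lowest.

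Several stem cell genes rested on 1 or 2 pools. Nr2e1, the orphan receptor TLX needed for stem cell self-renewal, stood at 8.41, 23.1 and 68.2 CPM, and the transcription factor Tfap2c at 12.7, 3.32 and 35 CPM. Prom1, which encodes the membrane glycoprotein CD133, stood at 43.4, 42.6 and 3.29 CPM, and most of its pool 2 reads came from library 2 (7.44 and 87.6 CPM). Nes, the intermediate filament nestin, stood at 6.11, 2.32 and 0.173 CPM and was the only list member under 10 CPM in every pool. Its level of 0.447 CPM per kb compares with 14.2 CPM per kb for the median member of the list and 6.90 CPM per kb for the median of all genes at 1 CPM or more in all pools.

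**Figure D3:**
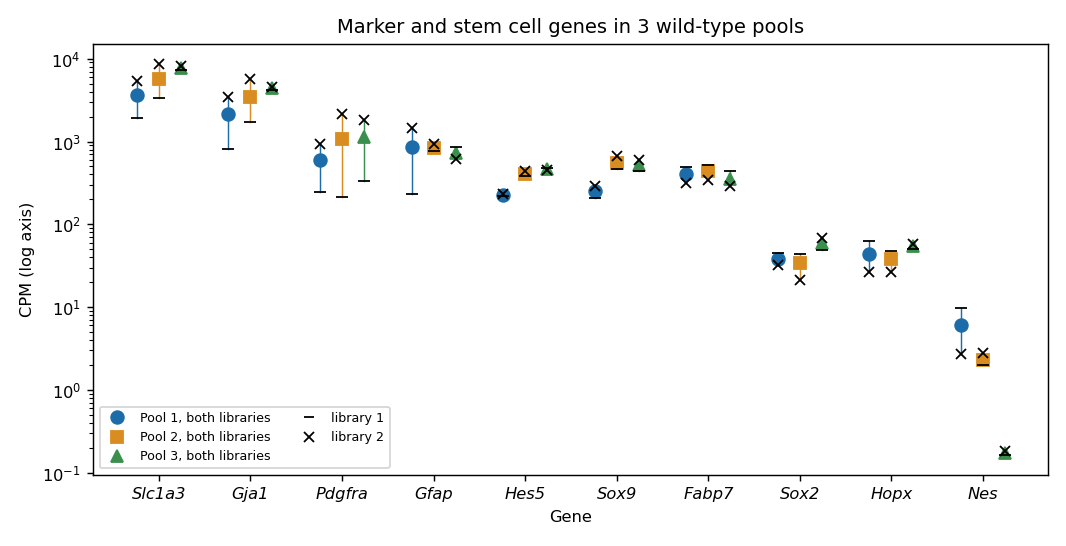
CPM on a log axis (y) of 10 marker and stem cell genes (x) in wild-type pools 1, 2 and 3; filled symbols are both libraries of a pool together, and the dash and cross are library 1 and library 2. The 5 markers all lie above 200 CPM, Pdgfra in pool 2 differs most between libraries, and Nes lies below 10 CPM in every pool.

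Mature astrocyte genes had the highest median level of the cell type lists. The 38 members took 9.65% ± 1.06% of the reads (mean ± SD, n = 3 pools), and 37 of 38 stood at 10 CPM or more in all pools. The same 37 members counted in all 6 libraries. The exception was Chrdl1, a secreted BMP antagonist, at 8.79, 27.3 and 1.09 CPM. The median member reached 277 CPM per kb, against 29.3 CPM per kb for oligodendrocyte precursor genes and 14.2 CPM per kb for stem cell genes. Membrane proteins were prominent: Slc1a2, the second glial glutamate carrier, stood at 2109, 2806 and 2201 CPM, and Atp1b2, a subunit of the glial sodium pump, at 1963, 2753 and 3479 CPM. Gjb6, the gap junction protein connexin 30, stood at 855, 1056 and 1092 CPM, and Aqp4, the water channel of astrocyte end-feet, at 390.3, 1043 and 882 CPM. Pool 1 was lowest for each of these 4 genes. Glul, which makes glutamine from glutamate, stood at 1901, 1791 and 1749 CPM, and S100b, a calcium-binding protein, at 286, 258 and 215 CPM. Aldh1l1, a folate enzyme used as a general astrocyte marker, stood at 145, 144 and 158 CPM and lay within 20 CPM over the pools. By highest pool, 20 members were highest in pool 2, 12 in pool 3 and 6 in pool 1. The share of all genes highest in each pool was not counted. Such counts, here and for the lists below, therefore describe the lists alone.

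Reactive astrocyte genes were mostly low. Of 16, 5 stood at 10 CPM or more in all pools, and Gfap and Vim, both also stem cell genes, were among these 5. Vim, an intermediate filament, stood at 52.3, 53.5 and 42.3 CPM. Serpina3n, a protease inhibitor, stood at 87, 104 and 129.9 CPM, but reads of Serpina3 and H2 family members are uncertain between copies. Lcn2, a secreted carrier of iron-binding molecules, stood at 0.740, 0.0237 and 0.223 CPM, and C3, a complement protein, at 0.361, 1.16 and 0.124 CPM.

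Of the Notch receptors, Notch1 and Notch2 were well above Notch3 and Notch4, and few ligands were abundant. Of 10 receptor and ligand genes, 5 stood at 10 CPM or more in all pools, namely Notch1, Notch2, Dll1, Jag1 and Dner. Notch2 stood at 95.3, 147 and 283 CPM, and Notch1 at 96.2, 114 and 98.1 CPM. Pool 3 was highest and pool 1 lowest for Notch2, whereas the pools of Notch1 lay within 20 CPM. Per kb, the ranges of Notch2 (8.84, 13.6 and 26.3 CPM per kb) and Notch1 (6.76, 7.98 and 6.89 CPM per kb) did not overlap. Notch3 stood at 1.48, 2.94 and 0.743 CPM and Notch4 at 0.399, 3.80 and 0.149 CPM, with means per kb of 0.213 and 0.180 CPM. Among ligands, Dll1 stood at 12.8, 24 and 54.4 CPM and Jag1 at 41, 23.2 and 18.1 CPM. Dll1 was highest and Jag1 lowest in pool 3. Dner, a Notch-binding protein of the cell surface, stood at 114, 186 and 194 CPM. Dll4 stood at 0.0190, 4.13 and 0 CPM, with all but a trace of its reads in pool 2.

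Genes that cut, modify or transport Notch included several of moderate level: 13 of 15 stood at 10 CPM or more in all pools and 6 in each library. That is 40% of the list in each library, as for the receptor and ligand genes (4 of 10). Both lie near the 39.9% of symbols at 1 CPM or more in all pools that did so. Ncstn, a subunit of the gamma-secretase that releases the intracellular domain, stood at 132, 115 and 116 CPM. Adam10, which makes the preceding cut, stood at 40.2, 78.5 and 45.8 CPM, and Numb, an inhibitor of Notch, at 20.6, 44 and 78.4 CPM. Lfng, a glycosyltransferase that tunes the response of Notch to its ligands, stood at 18.7, 26.3 and 21.3 CPM. Numbl and Mfng were the members that missed the level, with 9.59, 5.50 and 1.34 CPM and 6.80, 7.76 and 0.495 CPM.

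Downstream, Hes5 was the most abundant effector per kb and most other family members were low. Of 11 nuclear and target genes, 6 stood at 10 CPM or more in all pools. Rbpj stood at 17.9, 22 and 56.8 CPM, with pool 3 highest. Hes1, another effector of Notch, stood at 27.7, 20.4 and 15.5 CPM, which is 10.4 ± 3.02 CPM per kb beside 268 ± 92.1 CPM per kb for Hes5. The ranges of the 2 genes per kb did not overlap. Hey1 stood at 56.1, 79.8 and 97.9 CPM and its relatives Heyl and Hey2 at 4.50, 0.522 and 0.347 CPM and 2.47, 1.30 and 0.644 CPM. Hes6, an antagonist of Hes1 in neuronal differentiation, stood at 264, 117 and 128 CPM, highest in pool 1. Nrarp, a feedback inhibitor, stood at 1.54, 2.68 and 0.694 CPM, under 3 CPM in every pool. Per kb, Hes6 reached 93.9 CPM. Whether TGGGAA matches upstream go with level was not tested. No upstream sequence was at hand for Hes1, Hey1 and Heyl, and only 250 bases were searched for the others.

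Transcription factor genes of a list of 159 spanned a wide range, and 96 of 159 stood at 10 CPM or more in all pools. The count was 101, 101 and 106 without pools 1, 2 and 3, and 68 in each of the 6 libraries. The shares were 60.4% in all pools and 42.8% in each library. They lay near the 59.5% and 39.9% of the symbols at 1 CPM or more in all pools. Per kb, the highest were Olig1 (305 ± 108 CPM per kb), a factor of the oligodendrocyte lineage, Id2 (280.2 ± 19.3 CPM per kb), an inhibitor of bHLH factors, and Hes5. Their pool ranges overlapped, so no order among these 3 is given, whereas all pools of Hes5 lay above all pools of Id3, the next gene (126 ± 16.6 CPM per kb). Id2 varied little over pools, with 665, 736 and 648 CPM, while Olig1 stood at 420.0, 668 and 888 CPM, with 347 and 1342 CPM in the libraries of pool 3. Tsc22d1 (117 ± 11.1 CPM per kb) and Sox9 (107 ± 40.6 CPM per kb) came next, then Hes6 (93.9 ± 45.1 CPM per kb). Sox8 and Sox10, both factors of the oligodendrocyte lineage, stood at 147, 179 and 228 CPM and 95.3, 84.7 and 106 CPM. Stress-related Jun stood at 80.4, 166 and 213 CPM, and the clock repressor Nr1d1 at 110.2, 179 and 119.7 CPM. Of 19 neighbouring pairs among the 20 highest, 18 overlapped between pools. Long transcripts on the list included Zbtb20 (349, 736 and 948 CPM), Tcf4 (371, 687 and 735 CPM) and Nfib (133, 222 and 222 CPM). Zbtb20, Tcf4 and Nfib are factors of hippocampal and glial development, and each was lowest in pool 1.

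**Figure D4:**
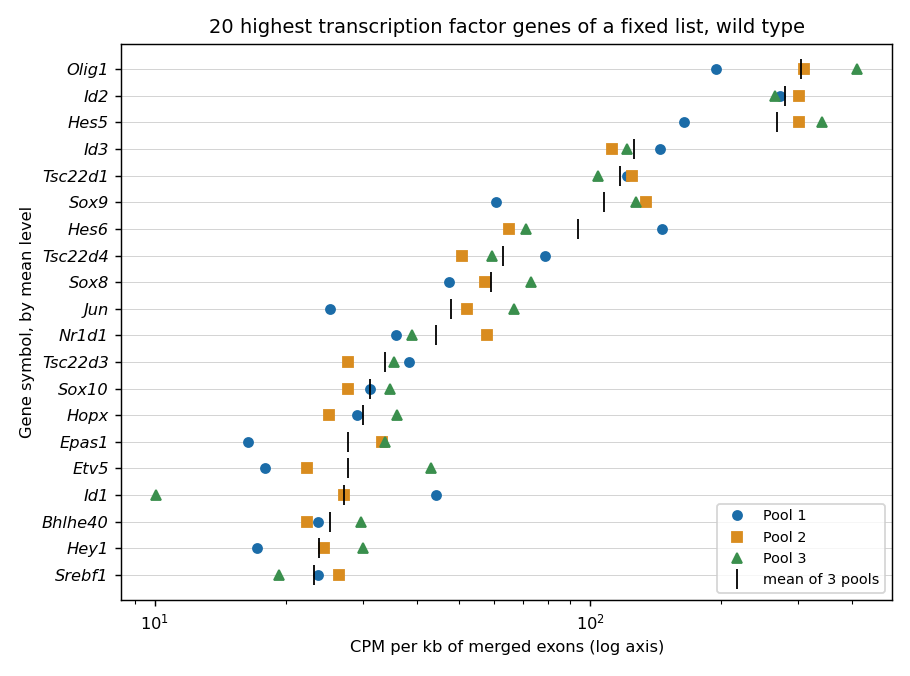
CPM per kb of merged exons on a log axis (x) for the 20 highest genes of a list of 159 transcription factors (y), 1 point per wild-type pool and a vertical bar for the mean. Olig1, Id2 and Hes5 lead with overlapping pools, and all pools of Hes5 lie above all pools of Id3.

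Oligodendrocyte precursor genes were present throughout. All 17 members stood at 10 CPM or more in all pools, and 16 did so in each of the 6 libraries. Together they took 0.580% ± 0.137% of the reads. Ptprz1, a receptor phosphatase, stood at 883, 1860.0 and 1851 CPM, but stem cells and astrocytes are known to express it as well. Cspg5, a transmembrane proteoglycan, stood at 777, 772 and 752 CPM and was among the 10 most even genes of those at 50 CPM or more. Neu4, a sialidase, stood at 471, 614 and 459 CPM, and Cspg4, the NG2 proteoglycan that defines the precursors, at 172, 117 and 158 CPM. Vcan, a matrix proteoglycan, stood at 63.6, 163 and 261 CPM. Olig2, the partner of Olig1, stood at 69.1, 52.8 and 23.1 CPM, in the opposite order over pools from Olig1. Per kb, Olig2 (19.1 ± 9.23 CPM per kb) lay below Olig1 in every pool. Gpr17, the receptor that marks committed precursors, stood at 218, 282 and 280.2 CPM, and its libraries in pool 3 held 74.2 and 453 CPM. Bmp4, a ligand of newly formed oligodendrocytes, stood at 50.6, 60.7 and 0.223 CPM, near 0 in pool 3. Of the 12 genes of newly formed oligodendrocytes, 9 stood at 10 CPM or more in all pools.

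Myelin genes of mature oligodendrocytes were also present, and their order over pools differed between genes. Of the list's 25 genes, 19 stood at 10 CPM or more in all pools. By gene, 12 members were highest in pool 3, 11 in pool 1 and 2 in pool 2. Mbp, myelin basic protein, stood at 401, 213 and 376 CPM, and Cnp, an enzyme of the myelin sheath, at 599, 543 and 798 CPM. Mog, on the outer surface of myelin, stood at 108, 50.1 and 46.2 CPM, highest in pool 1. Mag, which contacts the axon, stood at 113, 61.1 and 108 CPM, and its pool 3 libraries held 3.69 and 196 CPM. Opalin, a marker of myelinating cells, stood at 72.7, 6.69 and 40.9 CPM.

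Genes of intermediate progenitors and young neurons were uneven. Of 21, 11 (52.4%) stood at 10 CPM or more in all pools and 8 (38.1%) in each library. Both shares lay near the 59.5% and 39.9% of symbols at 1 CPM or more in all pools. The list's median of 6.74 CPM per kb was also near the 6.90 CPM per kb of all such genes. Ncam1, a cell adhesion gene that glia express as well, stood at 418, 658 and 602 CPM, and Stmn1, a regulator of microtubules, at 298, 94.4 and 155 CPM. Dcx, the microtubule protein of neuroblasts, stood at 11.1, 32.2 and 10.1 CPM, highest in pool 2. Eomes and Neurog2, factors of intermediate progenitors, stood at 11.4, 2.25 and 2.92 CPM and 4.59, 0.308 and 9.27 CPM. Neurod1, which follows them, stood at 44.1, 20.2 and 62.4 CPM. Prox1, the factor of granule neuron identity, stood at 35.3, 26.5 and 156 CPM and was among the 6 named genes that stood highest in pool 3 relative to the others. Both of its pool 3 libraries were above those of the other pools (132 and 176 CPM). Tubb3 and Stmn2, cytoskeletal genes of neurons, stood at 122, 31.6 and 15.8 CPM and 37.7, 10.1 and 0.124 CPM, both highest in pool 1 and lowest in pool 3.

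Mature neuron genes summed to 1306, 694 and 875 CPM, highest in pool 1. Of 17, 11 stood at 10 CPM or more in all pools and 7 in each library. The count was 11 without pool 1, 11 without pool 2 and 13 without pool 3. Snap25, a protein of synaptic vesicle fusion, stood at 253, 148 and 213 CPM and Camk2a, the kinase of excitatory synapses, at 320.3, 87.9 and 27 CPM. Slc17a7, the vesicular glutamate carrier that defines most hippocampal excitatory neurons, stood at 3.55, 1.23 and 0.0495 CPM, and Rbfox3, the nuclear protein NeuN, at 13.2, 2.94 and 1.11 CPM. Per kb, the defining marker Slc17a7 (0.299 ± 0.330 CPM per kb) lay below Snap25 (30.1 ± 7.79 CPM per kb) in every pool. Interneuron genes summed to 167, 61 and 84.1 CPM, and 2 of 13 reached the level, Gad1 and Cnr1, but neither did so in each library. Gad2 and Slc32a1, which define inhibitory neurons together with Gad1, stood at 0.683, 0.0712 and 0.248 CPM and 0.835, 0.0474 and 0 CPM.

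Cell cycle genes were present, with a median of 5.19 CPM per kb. The median of all genes at 1 CPM or more in all pools was 6.90 CPM per kb. Of the 35 cell cycle genes, 22 (62.9%) stood at 10 CPM or more in all pools, but only 9 (25.7%) did so in each library. The shares among symbols at 1 CPM or more in all pools were 59.5% and 39.9%. Per kb, Cdk4 (78.4 ± 16.3 CPM per kb) had the highest mean. The D-type cyclins start the cycle with this kinase: Ccnd1 stood at 167, 169 and 365 CPM, Ccnd2 at 173, 160.3 and 168 CPM and Cdk4 at 307, 201 and 256 CPM. Ccnd1 was highest in pool 3 and Ccnd2 was nearly even. Genes of DNA replication included Pcna at 94.2, 40.4 and 83.2 CPM and Mcm2 at 45.1, 20.3 and 22.2 CPM. Among genes of later phases, Top2a, which untangles chromosomes, stood at 26.7, 27.9 and 30.1 CPM and the mitotic cyclin Ccnb1 at 35.8, 15.6 and 20.4 CPM. Mki67, the marker of dividing cells Ki-67, stood at 9.40, 11 and 3.69 CPM, which is 0.799 ± 0.383 CPM per kb. Top2a lay within 4 CPM over the pools, but its pool 3 libraries held 6.13 and 50.2 CPM. Aurkb, a mitotic kinase, stood at 18, 19.1 and 0.0248 CPM, with 1 read in pool 3.

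Among genes that restrain the cycle, 8 of 16 stood at 10 CPM or more in all pools and 6 in each library. Gadd45g, a growth arrest gene, stood at 208, 112 and 159 CPM, and Cdkn2d, the inhibitor p19, at 106, 56.9 and 93.1 CPM. Cdkn1b, the inhibitor p27, stood at 15.4, 21.5 and 19.3 CPM, and Cdkn1a, the inhibitor p21, at 18.2, 4.08 and 9.34 CPM. Cdkn1c, the inhibitor p57 of quiescent stem cells, stood at 1.97, 0.617 and 0.149 CPM, under 2 CPM in every pool. Cdkn2a had 0 reads in all pools, which allows up to 0.0569 to 0.0743 CPM per pool.

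Markers of vessels and ependyma were mostly low, while those of microglia were mixed and those of red blood cells depended on the pool. Of 15 microglial genes, 8 (53.3%) stood at 10 CPM or more in all pools and 4 (26.7%) in each library. The shares among symbols at 1 CPM or more in all pools were 59.5% and 39.9%. The microglial median was 8.82 CPM per kb, against 6.90 CPM per kb for all genes at 1 CPM or more in all pools. The endothelial median was 0.694 CPM per kb. Microglial genes summed to 412, 342 and 395 CPM, with C1qb, a complement subunit, at 95.9, 79.1 and 40.8 CPM and Csf1r, the receptor that microglia depend on, at 35.4, 43.3 and 74.1 CPM. Tmem119 and Aif1, which define microglia, stood at 18.2, 3.58 and 0.0743 CPM and 2.68, 2.99 and 0 CPM, and the latter had 0 reads in pool 3. Endothelial genes summed to 212, 72.6 and 61.5 CPM and 1 of 13 reached 10 CPM in all pools. Cldn5, the tight junction protein of brain vessels, stood at 57.2, 5.65 and 0.0248 CPM, and pool 1 was highest for 10 of the 13 genes. Red blood cell genes summed to 376, 17.6 and 51.2 CPM, and pool 1 was highest for all 5. Hba-a1, an alpha globin gene, stood at 143, 6.38 and 21.4 CPM, but its reads cannot be told apart from those of Hba-a2. Pericyte and smooth muscle genes summed to 111, 97.9 and 37.7 CPM and genes of ependyma and choroid plexus to 36.3, 30.4 and 43.6 CPM. Of the last list, Rarres2 (32.7, 26 and 43.1 CPM) was the only member above 10 CPM, Foxj1, the factor of motile cilia, stood at 0.152, 0.0474 and 0 CPM, and Ttr had 0 reads in every pool. Blood, vessel and neuron markers were thus highest together in pool 1, and their part in the other differences of that pool was not tested.

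**Figure D5:**
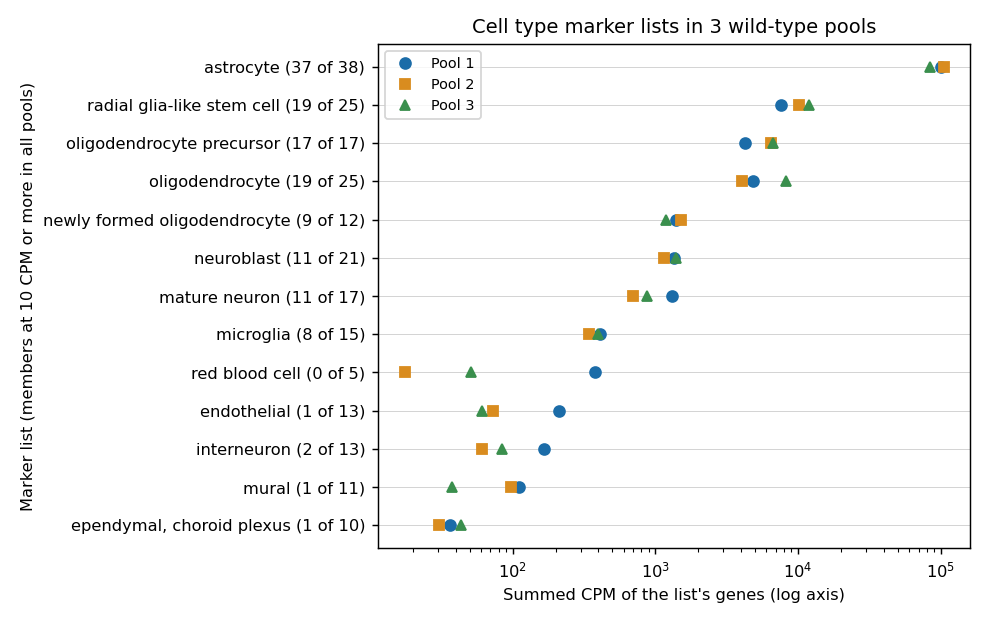
Summed CPM of the genes of each marker list on a log axis (x) for 13 cell type lists (y), 1 point per wild-type pool; the numbers beside each name are the members at 10 CPM or more in all pools. Astrocyte genes sum to 84530.4 to 104619 CPM, and red blood, endothelial and interneuron genes are highest in pool 1.

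Genes of glial transport and of energy and lipid metabolism were nearly all expressed. All 18 glial carriers, pumps and channels stood at 10 CPM or more in all pools, with a median of 114 CPM per kb. Slc39a12, a zinc carrier, stood at 560.4, 738 and 1233 CPM. None of the 18 was highest in pool 1. Of 18 genes of glycolysis, 17 reached the level, and 12 were highest in pool 1. Eno1, an enolase, stood at 1196, 1337 and 1002 CPM and Pkm, a pyruvate kinase, at 643, 519 and 515 CPM. Gapdh stood at 37.3, 33.6 and 23.1 CPM, and per kb its 7.58 ± 1.78 CPM per kb lay below the 219 ± 31.2 CPM per kb of Eno1 in every pool. Counts of genes with near-identical copies, as Gapdh has, are uncertain. All 18 genes of fatty acid oxidation reached the level, with Hadhb, part of the trifunctional enzyme, at 138, 199 and 209 CPM and Cpt1a, the entry step into mitochondria, at 47.4, 72.8 and 48.9 CPM. Of 20 genes of fatty acid and cholesterol synthesis, 19 reached it, with Scd2, a desaturase, at 566, 760.4 and 774 CPM.

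Receptor and secreted factor genes covered several signals. Of 27 receptor genes, 21 reached 10 CPM in all pools and 15 in each library. S1pr1, a sphingosine phosphate receptor, had the highest level per kb (741 ± 79.5 CPM per kb) and stood at 2029.5, 2512 and 2234 CPM. Ntrk2, the receptor of the growth factor BDNF, stood at 968, 1289.8 and 1399 CPM, and Fgfr3, a fibroblast growth factor receptor, at 276, 429 and 176 CPM. Egfr, a receptor of activated stem cells, stood at 16.4, 39.1 and 16.9 CPM. Smo and Ptch1, which transmit hedgehog signals, stood at 18.8, 20.9 and 27.2 CPM and 30.8, 47.8 and 64.6 CPM. Of 27 secreted proteins, 21 reached the level. Besides Apoe and Cst3, Ptn, a heparin-binding growth factor, stood at 1051, 1941 and 1722 CPM, and Bcan, the proteoglycan brevican, at 992, 1649 and 1270.0 CPM. Igf1 and Fgf2, growth factors that act on stem cells, stood at 0.114, 4.93 and 0.669 CPM and 0.361, 2.44 and 1.39 CPM, under 5 CPM in every pool.

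Most genes at 50 CPM or more differed by less than 2-fold across pools, and few by more than 10-fold. Over 10502 symbols with a mean of 10 CPM or more, the median coefficient of variation was 0.375. It was 0.275, 0.393 and 0.259 without pools 1, 2 and 3. These values rest on 2 pools each and so cannot be compared directly with the value from 3. Of 3964 symbols with a mean of 50 CPM or more, 61.7% differed by less than 2-fold between the highest and lowest pool (median ratio 1.80), and 8 differed by more than 10-fold. The most even were Cyr61, a secreted matrix protein (73.9, 73 and 73.2 CPM), Actr1a, a subunit of the dynactin motor complex (125, 123 and 124 CPM), and Tex261 (122, 125 and 122 CPM). This holds for both libraries summed: in pool 1 the libraries held 37.9 and 108 CPM for Cyr61 and 65.9 and 182 CPM for Actr1a, and in pool 3 79.6 and 158 CPM for Tex261. Besides the sex-linked and globin genes, the most uneven were Dtd1 (165, 69.1 and 5.52 CPM), an enzyme that edits mischarged tRNA, Ndn (222, 132 and 17 CPM), a growth suppressor of neurons, and Camk2a. Genes that stood highest in pool 1 relative to the others included the neuronal genes Cpne6 (149, 17 and 15.8 CPM) and Hpca (123, 26.8 and 18.8 CPM). In pool 2 they included Mbnl1 (26, 104 and 40.0 CPM), a regulator of splicing, and Kmt2d (36.9, 91.8 and 22.9 CPM), a histone methyltransferase. In pool 3 they included Bbs9 (19.6, 19.9 and 140.2 CPM), a protein of the primary cilium. Cytosolic ribosomal protein genes were highest in pool 1 in 76 of 79 cases, with sums of 5543, 2599 and 2683 CPM. The share of all genes highest in pool 1 was not counted. As for other multi-copy genes, ribosomal protein levels are uncertain, and pseudogene symbols took 6.24% of the reads. Their median log2 difference of library 2 over library 1 was -0.68. Genes with under 1 kb of exon were lower in library 2 too, as given below. Across 17745 genes, Pearson's r of log2 levels was 0.903 between pools 1 and 2, 0.795 between 1 and 3 and 0.824 between 2 and 3. Genes are not independent replicates, so these values describe the pools only.

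The 2 libraries of a pool differed in a way that depended on transcript length. In pool 1 the median log2 ratio of library 2 to library 1 was -0.86 for 846 genes with under 1 kb of exon and 0.76 for 3595 genes of 4 to 8 kb. In pool 2 the same values were -0.75 and 0.59, and in pool 3 -0.22 and 0.26. Cst3, with 1266 bases of exon, stood at 23884 and 11408 CPM in libraries 1 and 2 of pool 1, and Slc1a3, with 8537 bases, at 1921 and 5369 CPM. Single genes departed from their length class: Apoe, with 2138 bases, held 40268 and 23712 CPM, whereas the median log2 ratio of library 2 to library 1 was 0.42 for the 2726 genes of 2 to 4 kb in that pool. No single gene of 18185 passed an adjusted p under 0.05 in edgeR's quasi-likelihood test with pool as a block (0%, smallest adjusted p = 0.670), while 1335 had an unadjusted p under 0.05, of which 906 (4.98%) were higher and 429 (2.36%) lower in library 2. Without pool 3 the unadjusted count was 2948, and without pools 1 and 2 it was 557 and 477. DESeq2 called 446 of the same 18185 genes (2.45%), of which 384 were higher in library 2. The coefficient of variation fitted by edgeR was 0.823, so its 0 calls do not show that the libraries agree. For Hes5 the libraries of each pool lay within 60 CPM.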

How the data were processed

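Per the submitters' processing notes, the authors made the deposited counts, whole reads per gene symbol, with Bowtie2 and HTSeq on the mouse build GRCm38. Versions, annotation and settings are not given in the sources used here. Per the labels' protocols, RNA was amplified with Smart-Seq2 and libraries were made with Nextera XT, which does not mark strand. Reads of antisense and overlapping genes may therefore have been set aside as ambiguous or counted for the wrong gene. Reads in overlapping genes (2.92% to 3.43%), outside genes and unaligned (12.5% to 21.7%) were left out of totals. The 2 lanes on which a library was run agreed within sampling noise (chi-square over degrees of freedom 0.986 to 1.01), whereas the libraries of a pool did not (200.3 to 351), and all 4 runs were summed as 1 pool. The labels do not say whether pools shared animals, so SDs cover the spread between these pools. Reads carry no molecular identifiers, so detection limits cover counting error only. CPM are counts over reads in genes. Lengths are merged exons of GENCODE M21, matched for 95.8% of symbols.

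The libraries were compared with edgeR 4.0.16 (TMM, filterByExpr, pool as block) and DESeq2 1.42.0 in R 4.3.3, tested on simulated data, with Benjamini-Hochberg adjustment. Gene lists and tests were chosen with earlier results of these data known. Named genes are the 5 markers, list members, the 25 highest symbols per CPM or per kb, the 20 highest transcription factors, the 10 largest and 10 smallest pool ratios, and 6 genes highest in each pool, without clones and predicted models except as copies, and some of them are not reported here. The 12 runs of the other genotype were not used here.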

Additional observations from a re-analysis of the deposited data

How the results depend on the processing

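Pairing of libraries by pool comes from the labels, and without the replicate block the library test again called 0 genes. It also called 0 without each pool in turn and without the expression filter, while DESeq2 called 446. The share of reads in the 100 most abundant symbols, 29.0% with both libraries, was 32.7% in library 1 alone, 25.9% in library 2 alone and 27.0% when mitochondrially encoded genes were left out. The median coefficient of variation was 0.568 in library 1 alone. Leaving out 1 pool in turn gave 14018 to 15767 symbols at 1 CPM or more, a top-100 share of 28.2% to 30.0%, a coefficient of 0.259 to 0.393, and 469 to 487 of 667 list genes at 10 CPM or more (457 with all pools). In each of the 6 libraries, a setting chosen after seeing the data, 356 list genes reached 10 CPM. Of 576 named genes at 10 CPM or more, 120 moved by over 1.5 times in library 1 alone, 92 in library 2 alone, 52, 13 and 41 without pools 1, 2 and 3, and 0 with TMM scaling. In pool 3 the libraries matched less well than in the other pools, which limits low levels there.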

Other observations

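Long noncoding RNAs took 3.58% of the reads, most of them from Malat1. Pantr1, which lies beside the neural factor gene Pou3f3, stood at 414, 259.6 and 261 CPM in pools 1, 2 and 3, and Pantr2, from the same locus, at 19.1, 34.6 and 37.9 CPM. Gas5, a host of small nucleolar RNAs, stood at 117, 105 and 183 CPM and Mir99ahg, a host of microRNAs, at 81.1, 215 and 319.7 CPM. Mir99ahg was highest in pool 3 and lowest in pool 1. The noncoding RNA of the locus that carries the reporter, Gt(ROSA)26Sor, stood at 44.2, 48.4 and 43.8 CPM, within 5 CPM over the pools. It overlaps Thumpd3 on the other strand, so reads in the overlap may have been set aside as ambiguous or counted for the other gene.

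Immediate early genes, which respond within minutes to stimulation or cell dissociation, were present. On a list of these and stress genes, 10 of 14 (71.4%) stood at 10 CPM or more in all pools and 4 (28.6%) in each library. Among symbols at 1 CPM or more in all pools, 59.5% and 39.9% did so. Fos stood at 24.9, 71.9 and 12.9 CPM and Nr4a1 at 79, 108 and 36.1 CPM, both highest in pool 2 and lowest in pool 3. Egr1 stood at 19.2, 23.7 and 45.8 CPM and Jun at 80.4, 166 and 213 CPM, both highest in pool 3. The heat shock genes Hspa1a and Hspa1b, near-identical copies, stood at 20.4, 58.2 and 20.4 CPM and 13.1, 40.1 and 21.9 CPM, highest in pool 2. No single order of pools held for these genes.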
